A study of Mus musculus with 8 samples.

Results

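The genes described here encode proteins of the cytosolic ribosome and were followed across 8 arrays of mouse retina. They were chosen by name: a gene was taken when a probe set of the array carried it as its only symbol and that symbol followed the Rpl and Rps numbering, which leaves out the Rps6k kinases and the mitochondrial Mrpl and Mrps genes. The rule found 45 of the 18193 genes with a probe set of their own, 24 of the large 60S subunit, with the stalk proteins Rplp0 and Rplp2 among them, and 21 of the small 40S subunit. Where a gene had several such probe sets, the one brightest on average over the 8 arrays stands for it. The rule itself uses no measured difference, but the genes were chosen with earlier results of these data known.

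The study profiled retinas of mice carrying a null allele of Nxnl1, the gene of rod-derived cone viability factor (RdCVF), a photoreceptor protein related to thioredoxins. Total RNA came from retina separated from the pigment epithelium at postnatal day 40, with the strain given as BALB/c AJ, and was hybridised as biotin-labelled cRNA to Affymetrix 3' expression arrays. The labels gave 3 wild-type arrays (wt/wt), 2 heterozygous arrays (ko/wt) and 3 homozygous arrays (ko/ko), and the design text speaks of 9 samples, the ninth of which was not analysed here. All groups shared the strain, the age, the housing under a light and dark cycle and the dissection, and the labels describe no Cre line and no driver that limits the deletion to a cell type. The labels do not state whether the arrays within a group are different animals, so a p-value here reflects only how far these samples differ, which may be technical.

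A cytosolic ribosome is built from a small subunit, which holds the mRNA and the decoding site, and a large subunit, which forms peptide bonds and threads the new chain through its exit tunnel. Its proteins are made in matching amounts, and the mRNAs of nearly all of them begin with a run of pyrimidines, the 5' terminal oligopyrimidine (TOP) tract, through which the growth-controlling kinase mTOR adjusts their translation. In retina, photoreceptors replace their outer segments throughout life and need a steady supply of new protein.

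Short words of the promoters were counted near the start and across the promoter. RefSeq promoter sequences (GRCm38.p6) were matched for 39 of the 45 genes by symbol and not for Rpl7, Rpl8, Rps14, Rps20, Rps29 and Rps4l. Between 20 bases before and 20 bases after the annotated start, 18 of 39 promoters (46.2%) held, on the gene's strand, at least 1 of 4 pyrimidine words that can overlap (the word CTTTC, the word CTTCC, the word CCTTT or the word TTTCC), against 19.1% of 17491 promoters of protein-coding genes. The other 21 held none, and the count does not measure a TOP tract, which begins at the start itself. The word CCGGAAG, bound by ETS factors such as GABPA, stood on either strand in 19 of 39 (48.7%) of the 300-base promoters, against 11.9% of all. TATAAA was in 4 of 39 (10.3%, against 13.3% of all) and the SP1 word GGGGCGGGG in 2 of 39 (5.13% against 15.5%). A long word of the NRF1 motif, matched exactly, was in 1 of 39 (2.56% against 1.32%). A long word of the YY1 motif, also matched exactly, was in 0 of 39 (0.972% of all). The ETS, TATAAA, SP1, NRF1 and YY1 words were searched on both strands, and the pyrimidine words on the gene's strand only. Shorter or inexact matches to the NRF1 and YY1 motifs were not counted, so these counts do not show that such sites are absent. The reverse of the ETS word contains CTTCC, so the first 2 counts overlap, and a match says only that these letters are in the window. 8 start regions are shown, for genes whose array values are given further on (7 of the 8 hold a pyrimidine word, a larger share than over the 39), from 60 bases before to 20 bases after the start, on the gene's strand, with the pyrimidine words near the start and any CCGGAAG in capitals.
Rplp2: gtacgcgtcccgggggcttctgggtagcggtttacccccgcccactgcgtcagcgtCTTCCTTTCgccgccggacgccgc
Rpl35: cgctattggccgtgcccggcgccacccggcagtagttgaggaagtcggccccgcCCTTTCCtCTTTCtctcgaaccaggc
Rpl37: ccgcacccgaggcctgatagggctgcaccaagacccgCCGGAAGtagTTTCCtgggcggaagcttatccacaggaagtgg
Rpl38: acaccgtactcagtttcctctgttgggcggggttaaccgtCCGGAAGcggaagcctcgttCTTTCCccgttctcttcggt
Rpl4: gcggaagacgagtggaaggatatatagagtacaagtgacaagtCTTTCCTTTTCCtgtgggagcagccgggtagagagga
Rps10: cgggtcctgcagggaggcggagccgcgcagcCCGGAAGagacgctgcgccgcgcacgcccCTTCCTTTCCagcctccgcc
Rps27: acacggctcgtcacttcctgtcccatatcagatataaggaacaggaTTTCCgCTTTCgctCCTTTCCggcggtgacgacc
Rps27l: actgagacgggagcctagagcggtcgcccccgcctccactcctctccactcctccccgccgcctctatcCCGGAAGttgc
These regions lie at chr7:141447591-141447670 (Rplp2, plus strand), chr2:39005112-39005191 (Rpl35, minus), chr15:5116553-5116632 (Rpl37, plus), chr11:114668520-114668599 (Rpl38, plus), chr9:64173327-64173406 (Rpl4, plus), chr17:27635225-27635304 (Rps10, minus), chr3:90213629-90213708 (Rps27, minus) and chr9:66946026-66946105 (Rps27l, plus). The 45 genes are spread over 17 chromosomes.

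The target gene went against the label on 2 arrays. On the deposited log2 scale Nxnl1 read 9.22, 8.87 and 8.65 in wild type (arrays 1, 2 and 3, the order used throughout). The heterozygous label covered values of 8.65 and 6.75, and the homozygous label 6.13, 8.76 and 6.13. The array labelled homozygous 2 thus lay among the wild-type values and the array labelled heterozygous 2 below them, and each genotype difference given here mixes such arrays. The arrays were retina by their markers: 7 of 8 rod markers were measured and their means ran from 13.37 to 14.48. The mean of 6 lens markers ran from 5.77 on homozygous array 2 to 10.13 on homozygous array 1 and was 8.78 on wild-type array 1, and the part of lens tissue in the results was not tested. Pigment epithelium markers are given beside the array pattern. The arrays also differed in an RNA quality measure, the actin difference (signal of the actin control at its 5' end minus that at its 3' end, in log2), which becomes more negative as RNA is degraded. It was -1.81 on wild-type array 1 and -1.74 on homozygous array 1, and lay between -1.26 and -0.69 on the other 6 arrays.

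The array covers these genes unevenly. Many ribosomal protein genes have processed pseudogenes and near-identical copies, and their part in the coverage was not tested. RefSeq lists 82 mouse genes that the naming rule fits, and 37 of them had no probe set of their own. Of these, 28 appeared only on the 110 probe sets that name several genes. The 45 genes had 98 probe sets. Of the 45 representative probe sets, 30 carried a suffix (16 a, 2 s and 12 x) by which the maker marks probes that match more than 1 transcript, so their signal can include copies and splice forms. The means of 32 genes lay between 11.27 and 13.65, and those of 13 genes at or below 11, down to 3.30 for Rps16, which encodes a protein at the decoding site. For 9 of these 13 (Rpl12, Rpl14, Rpl27a, Rpl37, Rpl39, Rps16, Rps25, Rps27 and Rps6) a probe set shared with other symbols read 11.65 to 13.44 while their own read 3.30 to 8.70. Their low values therefore describe those probe sets and not the abundance of the mRNA, and levels are not compared between genes.

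The levels of ribosomal protein genes varied together from array to array. Their median deviation from each gene's own 8-array mean was 0.18 on wild-type array 1, 0.051 on wild-type array 2 and -0.10 on wild-type array 3. It was -0.075 and -0.040 on heterozygous arrays 1 and 2, and 0.051, -0.0085 and -0.11 on homozygous arrays 1, 2 and 3. The wild-type arrays alone spanned the range of the whole series above and nearly all of it below, and the 3 groups overlapped. The group means of this median were 0.044 ± 0.144 (SD, n = 3) for wild type, -0.058 ± 0.024 (SD, n = 2) for heterozygous and -0.023 ± 0.082 (SD, n = 3) for homozygous. For 756 other genes with a mean over 11, the same median stayed between -0.023 and 0.039 on every array.

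Markers of the pigment epithelium, the tissue that the dissection removed, varied over the arrays in a similar order. The mean of all 6 markers was 10.06, 10.07 and 9.38 in wild type, 9.09 and 9.20 on the heterozygous arrays and 9.85, 9.67 and 9.06 on the homozygous arrays, and no marker had an 8-array mean below 7.30. The 4 arrays with the highest marker means (wild-type 1 and 2, homozygous 1 and 2) also had the 4 highest medians of ribosomal protein genes, and homozygous array 3 was lowest in both. The part of pigment epithelium in the array pattern and in the genotype differences was not tested.

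**Figure D1:**
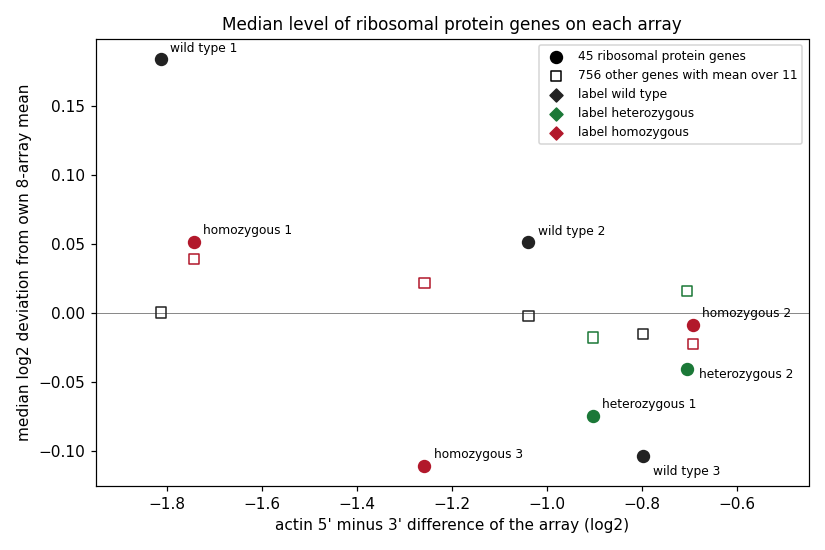
Median log2 deviation from the own 8-array mean on each array, plotted against the actin 5' minus 3' difference (log2), for the 45 ribosomal protein genes (filled circles) and 756 other genes with a mean over 11 (open squares), coloured by genotype label. Wild-type array 1 stands at 0.18 for the ribosomal protein genes and near 0 for the others, and homozygous array 1, with nearly the same actin difference, at 0.051 and 0.039.

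Wild-type array 1 gave the highest of the 8 values for 31 of the 45 genes (68.9%), against 15.7% of all genes. Homozygous array 1 gave the highest value for 5 of 45 (11.1%), against 34.7% of all genes. The lowest value lay on wild-type array 3 for 17 of 45 (37.8%, against 19.7% of all genes) and on homozygous array 3 for 12 (26.7%, against 11.7%). On wild-type arrays 1 and 2, 39 and 37 of the genes stood above their own mean, on homozygous array 3 only 2. Wild-type array 3, with 8 genes above their own mean, and homozygous array 3 were thus the low arrays and wild-type array 1 the high one, so the order of the arrays ran across the genotype labels.

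**Figure D2:**
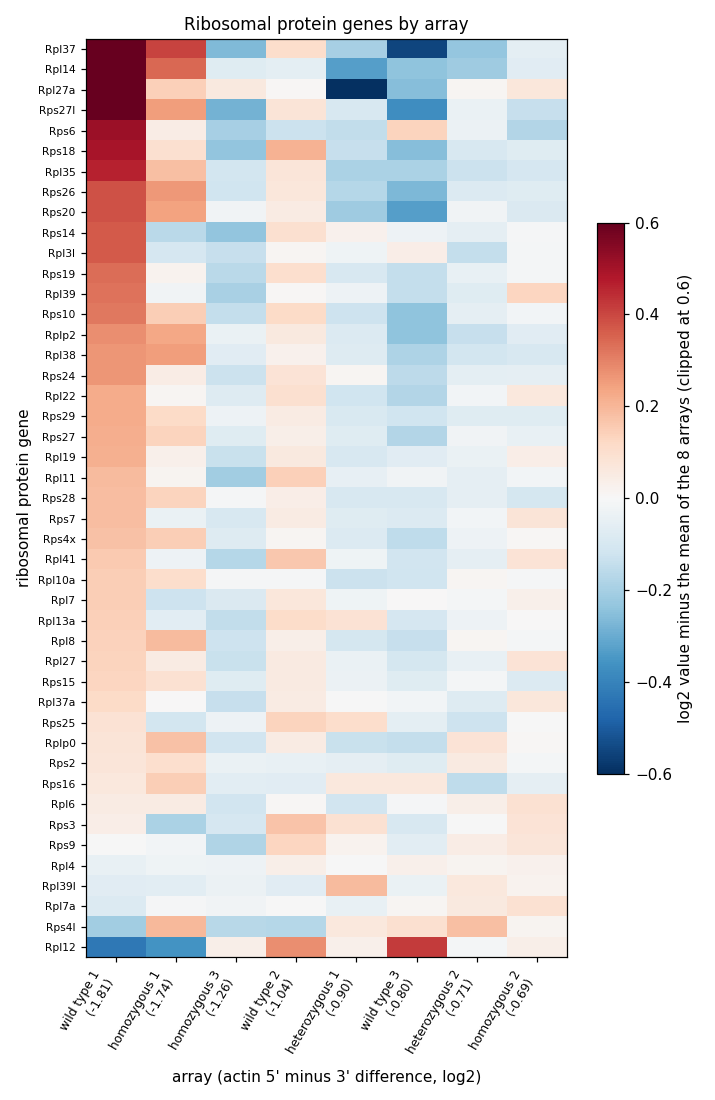
Log2 value of each of the 45 ribosomal protein genes (rows, sorted by wild-type array 1) minus its mean over the 8 arrays (columns, sorted by actin 5' minus 3' difference in log2 units), with colour limits at -0.6 and 0.6. Most rows are highest on wild-type array 1, and Rpl12 runs the other way, from 6.22 on that array to 7.06 on wild-type array 3.

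Over the 8 arrays the mean Pearson correlation between pairs of the 45 genes was 0.421, with 78.9% of 990 pairs above 0, against a mean of 0.0593 over all genes. For the 32 genes with a mean over 11 it was 0.543, against 0.0296 for the 756 others at that level. Without wild-type array 1 the 2 means for ribosomal protein genes were 0.332 and 0.475, and without that array and homozygous array 1 they were 0.374 and 0.566. The 76 mitochondrial ribosomal protein genes, which serve the separate ribosome of mitochondria, had a mean of 0.511. Their mean was 0.578 without wild-type array 1 and 0.277 without both arrays. These correlations share the arrays, their RNA quality and the normalization, and probe sets of this family can share cross-hybridising sequence, so they are descriptions. The spread itself was small: the median SD over the 8 arrays was 0.121 for the 45 genes and 0.139 for all genes.

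Correlated with the mean of the other ribosomal protein genes over the 8 arrays, 40 of the 45 genes had an r above 0 and 25 an r above 0.8, with a median of 0.841. The highest were Rps18 (0.980), a protein of the 40S head, Rps10 (0.979), which sits on the 40S head too, and Rps19 (0.977), a gene mutated in Diamond-Blackfan anaemia. Rps10 read 12.88, 12.68 and 12.32 in wild type, 12.44 and 12.51 on the heterozygous arrays and 12.71, 12.55 and 12.42 on the homozygous arrays. Its heterozygous and homozygous values all lay within the wild-type range. Rps19 read 11.69, 11.46 and 11.21 in wild type, 11.26 and 11.31 on the heterozygous arrays and 11.38, 11.34 and 11.20 on the homozygous arrays. It has the same order of wild-type arrays as Rps10.

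Below 0 were Rpl12 (-0.729), Rpl39l (-0.473), Rpl4 (-0.433), Rpl7a (-0.424) and Rps4l (-0.390). Rpl4, which lines the narrowest point of the exit tunnel, read between 12.65 and 12.73 on all 8 arrays and had the smallest SD of the 45 genes (0.031). Rpl7a followed with an SD of 0.055 and Rps2, which helps form the mRNA entry channel, with 0.065. Rpl6, Rpl37a and Rps15 completed the 6 steadiest genes. The largest SDs belonged to Rpl37 (0.427), Rpl27a (0.349), Rpl14 (0.329), Rps27l (0.311), Rpl12 (0.285) and Rps18 (0.254), of which Rps18 was the 1 with a mean over 11.

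Outside the family, the genes whose pattern over the 8 arrays was nearest to the mean of the 45 were S100a7l2 (r = 0.988), Cox7a2 (0.987), Ndufa6 (0.984), Dnajc15 (0.983) and Ndufa2 (0.983). S100a7l2 read at most 3.47, close to the lowest values of the table. Cox7a2, a subunit of cytochrome c oxidase, read 12.81 on wild-type array 1, 12.07 on wild-type array 3 and between 12.12 and 12.47 on the other 6 arrays. These were picked as the nearest of all genes over the same 8 arrays, so the size of r carries no test.

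The comparison of homozygous with wild-type retina was meant to show how these transcripts respond when Nxnl1 is lost. It follows the labels, and Nxnl1 read 8.76 on homozygous array 2, among the wild-type values. None of the 45 genes passed the adjusted threshold of 0.05 (limma, two-sided, Benjamini-Hochberg over 45037 probe sets, smallest adjusted p = 0.999923), where 0% of probe sets were called, and 0 of 45 had an unadjusted p under 0.05, against 0.913% of all probe sets. The log2 differences ran from -0.28 to 0.11, with 35 of 45 (77.8%) below 0 and a median of -0.059. Over all 18193 genes 39.5% were below 0 and the median was 0.024. In the 40S subunit 17 of 21 were below 0 (median -0.065), and in the 60S subunit 18 of 24 (median -0.046). In bulk tissue a lower value can come from fewer cells of a type or from less RNA per cell, and these cannot be told apart.

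The side of 0 depended on which arrays were kept. Among single arrays left out, only wild-type array 1 turned the median above 0. Leaving out homozygous array 3 gave a median of -0.010, with 20 of 45 genes above 0. Without wild-type array 1 the median was 0.024 and 19 of 45 genes (42.2%) were below 0, against 34.5% of all genes, whose median was 0.049. Without wild-type array 1 and homozygous array 1, the pair with the most negative actin difference, 30 of 45 (66.7%) were below 0, with a median of -0.029, against a median of 0.013 over all genes. With the pair of arrays whose Nxnl1 went against the label left out, the median was -0.061 and 29 of 45 (64.4%) were below 0, against 37.0%. With all arrays kept, array weights gave a lower median of -0.135, with 7 of 45 genes above 0. The actin difference as a covariate gave -0.062, with 10 of 45 above 0, close to the main fit (-0.059, with 10 of 45 above 0).

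**Figure D3:**
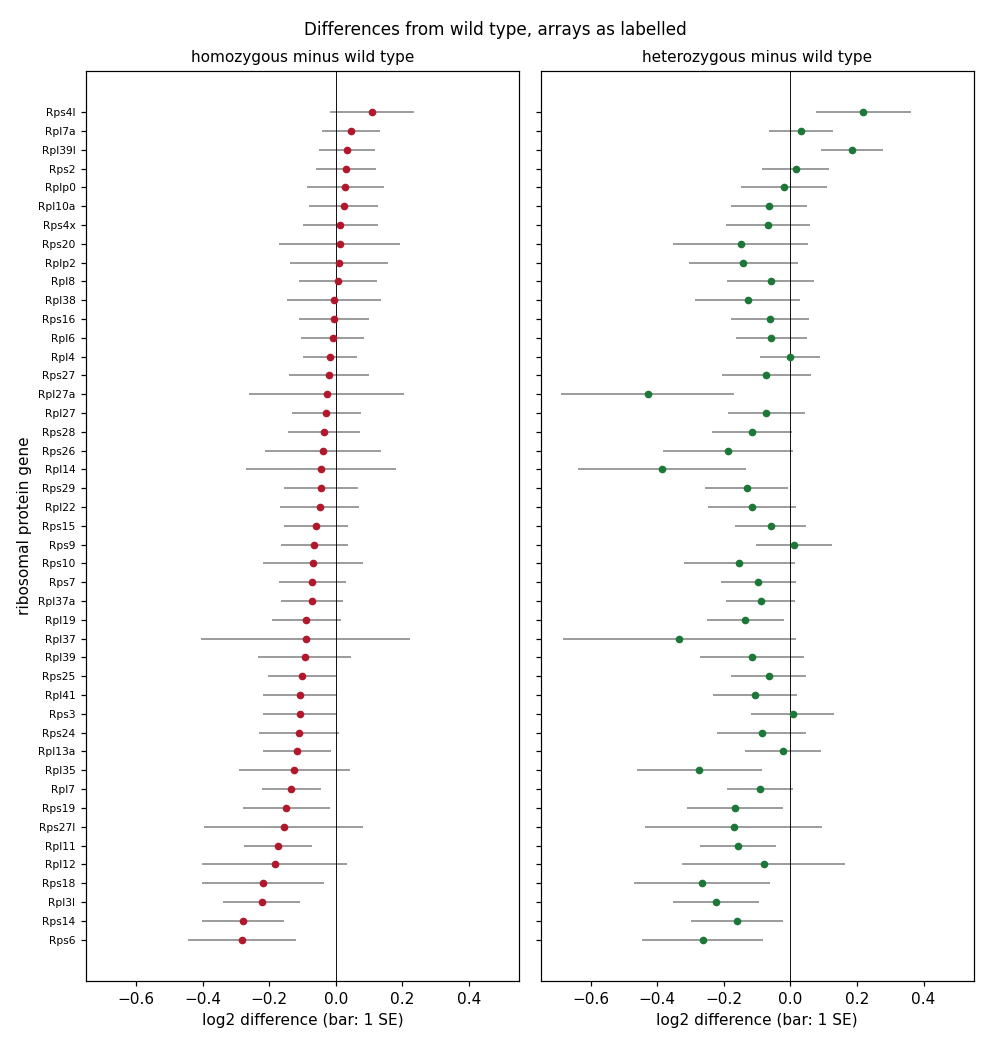
Log2 difference of each of the 45 ribosomal protein genes from wild type (points) with 1 SE of the limma fit (bars), homozygous at left and heterozygous at right, sorted by the homozygous difference. Most points lie left of 0, with 35 of 45 at left and 39 of 45 at right, and none passed the adjusted threshold.

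Among the 40S genes the lowest unadjusted p was that of Rps14, whose loss of 1 copy contributes to the anaemia of 5q- syndrome. It read 12.75, 12.47 and 12.35 in wild type, 12.40 and 12.32 on the heterozygous arrays and 12.22, 12.37 and 12.14 on the homozygous arrays, a difference of -0.28 (SE 0.12, limma unadjusted p = 0.0525, adjusted p = 0.999923). The homozygous values lay at the low end, and homozygous array 2 lay above wild-type array 3. Rps6, the substrate of the S6 kinases, read 6.53, 5.89 and 6.15 in wild type, 5.87 and 5.98 on the heterozygous arrays and 6.06, 5.84 and 5.82 on the homozygous arrays, a difference of -0.28 (SE 0.16). This is the dim probe set of its own, and wild-type array 1 was the highest of the 8. Rps18 differed by -0.22 (SE 0.18), from 12.56, 12.27 and 11.81 in wild type to 12.16, 11.99 and 11.83 on the homozygous arrays, which lay inside the wild-type range.

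Of the 60S genes, Rpl11, which with the 5S RNA can bind Mdm2 and stabilise p53, read 12.21, 12.17 and 12.00 in wild type, 11.97 and 11.97 on the heterozygous arrays and 12.04, 12.01 and 11.82 on the homozygous arrays. Its difference was -0.17 (SE 0.10), and homozygous arrays 1 and 2 overlapped the lowest wild-type array. Rpl7 differed by -0.13 (SE 0.09) from wild type. Another Rpl7 probe set, with a mean of 12.35, differed by -0.22 (SE 0.09, limma unadjusted p = 0.0318, adjusted p = 0.999923). On it all homozygous values lay below all wild-type ones, as on 1.84% of all probe sets. The remaining Rpl7 probe set differed by -0.17 (SE 0.10), and its groups overlapped. Rpl38, known from the Tail-short mouse and from the translation of Hox mRNAs, differed by -0.0055 (SE 0.14). Rpl13a, also known as a silencer of inflammatory mRNAs outside the ribosome, differed by -0.12 (SE 0.10). On the other side of 0 were Rpl7a at 0.046 (SE 0.09), Rps2 at 0.031 (SE 0.09) and Rpl10a at 0.023 (SE 0.10), each smaller than its SE.

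The stalk, which recruits the translation factors that hydrolyse GTP, gave values near 0. Rplp0, its anchor, read 11.35, 11.32 and 11.13 in wild type, 11.14 and 11.35 on the heterozygous arrays and 11.45, 11.28 and 11.16 on the homozygous arrays, a difference of 0.029 (SE 0.12). Rplp2, an acidic arm of the stalk, read 12.97, 12.75 and 12.44 in wild type, 12.61 and 12.55 on the heterozygous arrays and 12.92, 12.62 and 12.65 on the homozygous arrays, a difference of 0.0096 (SE 0.15). In both genes the heterozygous and homozygous values overlapped the wild-type ones. Rplp1 had no probe set of its own.

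Paralogs with known tissue preferences were measured too. Rpl3l is the skeletal and heart muscle form of Rpl3. By representative probe set it was the only member whose homozygous values all lay below the wild-type ones, 1 of 45 against 1.84% of all probe sets. No member lay wholly above them, against 2.63%. Rpl3l read 3.78, 3.42 and 3.45 in wild type, 3.38 and 3.27 on the heterozygous arrays and 3.31, 3.40 and 3.27 on the homozygous arrays, a difference of -0.22 (SE 0.12), all near the lowest values of the table. Rpl39l, the male germ cell form of Rpl39, lay between 3.61 and 3.87 on all arrays, with a difference of 0.033 (SE 0.08). Rps4l, a copy of Rps4x, read 8.96, 9.00 and 9.27 in wild type and 9.37, 9.19 and 9.00 on the homozygous arrays, a difference of 0.11 (SE 0.13). Its groups overlapped. The p53-induced Rps27l read 9.62, 9.10 and 8.65 in wild type and 9.28, 8.89 and 8.74 on the homozygous arrays, a difference of -0.16 (SE 0.24). The probe sets of their standard forms differed by -0.093 (Rpl39, SE 0.14), 0.013 (Rps4x, SE 0.11) and -0.020 (Rps27, SE 0.12). Rps27, a zinc-finger protein, read 7.52, 7.33 and 7.12 in wild type, 7.22 and 7.28 on the heterozygous arrays and 7.43, 7.26 and 7.23 on the homozygous arrays, all within the wild-type range. Rpl3, Rpl5, Rpl10, Rpl10l and Rpl24 had no probe set of their own.

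The heterozygous comparison used the same wild-type arrays, so its side of 0 is not independent of the homozygous one. None of 45 genes passed the adjusted threshold (limma, smallest adjusted p = 0.999938, 0% of probe sets called) or had an unadjusted p under 0.05, against 1.15% of all probe sets. The median log2 difference was -0.096 and 39 of 45 (86.7%) were below 0, against a median of -0.0067 and 52.4% of all genes. Without wild-type array 1 the median was -0.027 and 29 of 45 (64.4%) were below 0, against 44.6% of all genes. With all 8 arrays and the actin difference as a covariate the median was -0.029, with 16 of 45 above 0. Both heterozygous values lay below all wild-type ones for Rpl3l, Rpl7 and Rpl11, 3 of 45 against 7.2% of all probe sets, and above them for Rpl39l, 1 of 45 against 7.03%.

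Farthest below 0 in heterozygous retina were Rpl27a, Rpl14 and Rpl37, which are 60S genes read by dim probe sets. Rpl27a read 9.29, 8.69 and 8.43 in wild type and 8.06 and 8.70 on the heterozygous arrays, a difference of -0.43 (SE 0.26). Rpl14 read 6.63, 5.93 and 5.74 in wild type and 5.66 and 5.77 on the heterozygous arrays, a difference of -0.39 (SE 0.25). In both genes wild-type array 1 was the highest value of the series. Rpl35, a protein at the mouth of the exit tunnel, differed by -0.27 (SE 0.19) and Rps6 by -0.26 (SE 0.18). Above 0 were Rps4l at 0.22 (SE 0.14), Rpl39l at 0.18 (SE 0.09), Rpl7a at 0.032 (SE 0.10), Rps2 at 0.015 (SE 0.10), Rps9 at 0.011 (SE 0.11) and Rps3 at 0.0068 (SE 0.12).

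Between homozygous and heterozygous arrays the median difference was 0.026, with 31 of 45 genes above 0 and 14 (31.1%) below, against a median of 0.035 and 36.3% below over all genes. The direction turned with the actin difference as a covariate (11 of 45 above 0, median -0.032) and with array weights (14 above 0, median -0.029), and without homozygous array 1 there were 23 above 0 (median 0.0048). None passed the adjusted threshold (limma, 0% of probe sets called) or an unadjusted p of 0.05, against 0.899% of all probe sets. The homozygous values lay wholly above the heterozygous ones for Rpl14, Rpl27a, Rpl35 and Rplp2, 4 of 45 against 6.75% of all probe sets, and wholly below for Rpl39l, 1 of 45 against 5.68%. The largest differences were 0.40 for Rpl27a (SE 0.26), 0.34 for Rpl14 (SE 0.25) and 0.24 for Rpl37 (SE 0.35). In order of unadjusted p, Rpl27a and Rpl14 were followed above 0 by Rplp2 (0.15, SE 0.16), Rpl35 (0.15, SE 0.19), Rps20 (0.16, SE 0.20) and Rpl38 (0.12, SE 0.16). In the same order, Rpl39l (-0.15, SE 0.09), Rps3 (-0.11, SE 0.12), Rps14 (-0.12, SE 0.14), Rpl13a (-0.095, SE 0.11), Rps4l (-0.11, SE 0.14) and Rps9 (-0.076, SE 0.11) lay on the other side.

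The actin difference gave the calls. At fixed genotype label, 3 of the 45 genes had a slope on it past the adjusted threshold (limma, two-sided, Benjamini-Hochberg), against 10.3% of all probe sets: 1 with a positive slope (5.04% of all) and 2 with a negative one (5.29%). Over the 18193 genes, each read by its brightest probe set like the 45, 1565 passed, 215 positive and 1350 negative. A negative slope means a higher value where the actin difference is more negative. At an unadjusted p under 0.05 there were 12 of 45, against 27.8% of all probe sets. The slopes of 36 of 45 genes were below 0, with a median of -0.14, against 64.7% below 0 and -0.080 over all genes and 57.1% and -0.040 over the 756 others with a mean over 11. In the 40S subunit 18 of 21 were below 0, and in the 60S subunit 18 of 24.

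All 3 genes called belong to the 60S subunit, were read by dim probe sets of their own, and have brighter probe sets shared with other symbols. Rpl12, at the base of the stalk, had a slope of 0.60 (SE 0.14, limma adjusted p = 0.0328). It read 6.22, 6.93 and 7.06 in wild type, 6.68 and 6.63 on the heterozygous arrays and 6.29, 6.68 and 6.68 on the homozygous arrays, lowest on the 2 arrays with the most negative actin difference. Rpl14 had a slope of -0.61 (SE 0.15, limma adjusted p = 0.0353) and was highest on those 2 arrays, at 6.63 on wild-type array 1 and 6.33 on homozygous array 1. Rpl37, a zinc-binding protein, had a slope of -0.81 (SE 0.22, limma adjusted p = 0.0469). It read 9.49, 8.80 and 8.15 in wild type, 8.50 and 8.46 on the heterozygous arrays and 9.10, 8.64 and 8.43 on the homozygous arrays. Its start region, shown above, holds an ETS word and a single pyrimidine word.

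Just short of the threshold were Rps27l (-0.61, limma adjusted p = 0.0537), Rpl35 (-0.42, 0.064), Rpl38 (-0.36, 0.0647) and Rplp2 (-0.37, 0.0717). Rpl35 read 12.47, 12.08 and 11.82 in wild type, 11.82 and 11.88 on the heterozygous arrays and 12.19, 11.91 and 11.90 on the homozygous arrays. Rpl38 read 13.25, 13.01 and 12.80 in wild type, 12.91 and 12.88 on the heterozygous arrays and 13.23, 12.89 and 12.92 on the homozygous arrays. Both stood highest on the 2 arrays with the most negative actin difference. Positive slopes other than that of Rpl12 were at most 0.10, for Rpl7a, with Rps3 at 0.092, Rpl4 at 0.066, Rps4l at 0.052, Rps9 at 0.047 and Rpl39l at 0.039, and none of these passed the test.

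**Figure D4:**
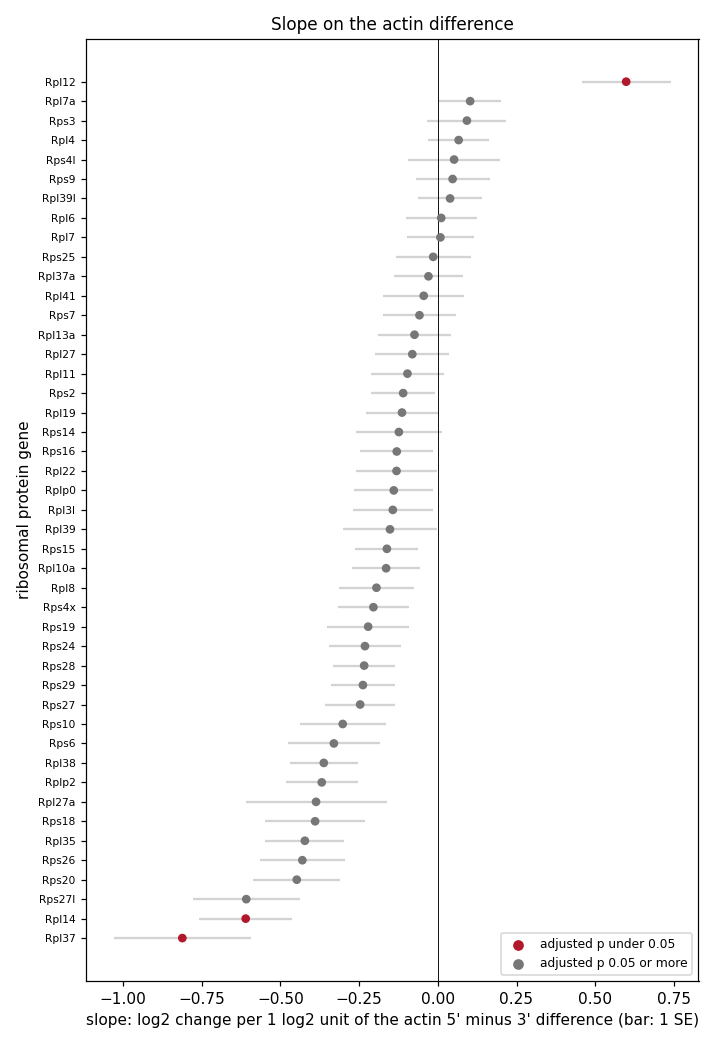
Slope of each of the 45 ribosomal protein genes on the actin 5' minus 3' difference, in log2 units of the gene per log2 unit of the difference, with 1 SE of the limma fit (bars); red points have an adjusted p under 0.05. Rpl12 stands alone at 0.60 and Rpl37 is farthest below 0 at -0.81.

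The calls changed when single arrays were left out. Without wild-type array 1 the count of probe sets past the threshold was 13 instead of 4653, and 0 of the 45 genes passed, with slopes of 0.36 for Rpl12 (limma adjusted p = 0.288), -0.37 for Rpl14 (0.305) and -0.52 for Rpl37 (0.362). No member passed without wild-type array 2, wild-type array 3 or homozygous array 1 either. Over all 8 fits that left out an array the slopes kept their sign, from 0.36 to 0.82 for Rpl12, -0.83 to -0.37 for Rpl14 and -1.22 to -0.52 for Rpl37, so a lost call does not show that a slope was absent. Without heterozygous array 1, heterozygous array 2 or homozygous array 2 there were 2, and without homozygous array 3 there were 4. Without homozygous array 1 the count of probe sets was 1684, without homozygous array 2 it was 534 and without wild-type array 3 it was 2955.

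Several probe sets of a gene did not always give the same side of 0. Of 22 genes with more than 1 probe set, 11 had both signs in the homozygous difference and 12 in the slope, while the largest spread between the homozygous differences of a gene was 0.33. In Rpl35, 5 probe sets were highest on wild-type array 1, and the sixth, a dim one reading 4.13 there and up to 4.71 elsewhere, was lowest on it. In Rps3, which binds mRNA at the entry channel, the representative probe set read 12.36 on wild-type array 1 and 12.50 on wild-type array 2, and another read 8.55 and 8.08. The side of 0 of a small difference thus depended on the probe set.

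The 110 probe sets that name several genes, at least 1 of them a ribosomal protein gene, were kept out of the 45. For homozygous against wild type, 81 of them were below 0 with a median of -0.056, and none passed the adjusted threshold. Without wild-type array 1, 34 of 110 were below 0. For the actin slope 94 of 110 were below 0 with a median of -0.26, and 10 of 110 passed, 4 positive and 6 negative, near the 10.3% of all probe sets (5.04% positive and 5.29% negative). Their median deviation on wild-type array 1 was 0.27.

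The other genes of the translation machinery were taken from lists of known members. No list had a gene past the adjusted threshold for homozygous against wild type (limma). 5 ribosomal proteins whose names fall outside the rule were all below 0, with a median of -0.064; among them Rpl22l1, the paralog of Rpl22, differed by -0.28 (SE 0.14), and Fau, which encodes the 40S protein eS30 as a fusion, by -0.065 (SE 0.09). Of 15 elongation factors and other genes with TOP mRNAs, 5 were above 0 (median -0.035). Of 25 initiation factors, 17 were above 0 (median 0.020), among them Eif3d, a cap-binding subunit of eIF3, at 0.17 (SE 0.10).

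The 36 ribosome biogenesis factors stood on the other side of 0 from the ribosomal proteins, with 30 above 0 and a median of 0.074. Polr1a, the largest subunit of RNA polymerase I, read 7.19, 7.15 and 6.86 in wild type, 7.29 and 7.25 on the heterozygous arrays and 7.39, 7.24 and 7.35 on the homozygous arrays, a difference of 0.26 (SE 0.11, limma unadjusted p = 0.0433, adjusted p = 0.999923). Its wild-type values all lay below the others. Of all probe sets, 2.63% lay wholly higher in homozygous than in wild type and 7.03% wholly higher in heterozygous than in wild type. Polr1a was named for the smallest unadjusted p of the 36 genes. Rrp12, which acts in subunit export and maturation, differed by 0.32 (SE 0.17). Of all genes 39.5% were below 0, and the difference between the lists was not tested.

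Of 19 regulators of ribosomal protein synthesis, 13 were above 0 (median 0.045), with Mtor, the kinase itself, at 0.097 (SE 0.11) and Myc at 0.13 (SE 0.12). Of 11 quality control and recycling factors, 6 were above 0 (median 0.013), and of 76 mitochondrial ribosomal proteins, 47 (median 0.019). For the actin slope the numbers past the threshold were 3 of 36 biogenesis factors, all negative, 4 of 76 mitochondrial ribosomal proteins (1 positive, 3 negative), 2 of 15 elongation and TOP genes, 1 of 25 initiation factors, 1 of 19 regulators and 1 of 11 quality control factors, against 10.3% of all probe sets. Counted by gene, as these lists are, 1565 of 18193 passed, 215 positive and 1350 negative. Pelo, which rescues stalled ribosomes, was the quality control factor, with a slope of -0.54 (SE 0.11, limma adjusted p = 0.0232). Hnrnpa1, an RNA-binding protein with a TOP mRNA, had a slope of 0.42 (SE 0.10, limma adjusted p = 0.0372).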

How the data were processed

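The values are log2 signals of single probe sets on single arrays, deposited by the authors after RMA, per the submitters' processing notes. No RMA version or setting is given in the sources used here. RMA evens out the distribution of probe intensities between arrays before they are summarised, so each value is relative to the bulk of transcripts. The deposited values did not share exactly the same distribution. Their array medians ran from 6.11 on homozygous array 1 to 6.21 on heterozygous array 1 and wild-type array 3. Symbols were read from GEO's platform annotation: 34945 probe sets had 1 symbol, 932 several and 9160 none, and 64 control probe sets were left out. Group means of all 8 arrays were fitted with limma 3.58.1 in R 4.3.3 (two-sided eBayes test, 5 residual degrees of freedom), and p-values were adjusted by Benjamini-Hochberg over 45037 probe sets with a threshold of 0.05; SE is the moderated standard error. A second fit added the actin 5' minus 3' difference (4 residual degrees of freedom). The number of arrays limits the precision.

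Members and lists were chosen with earlier results of these data known. Named genes were up to 6 per direction by unadjusted p in each contrast and for the slope, the 6 largest and 6 smallest SDs, stalk proteins, paralogs with their standard forms, members with known roles, up to 4 genes per list by p for homozygous against wild type, and the 5 nearest patterns. The fit was tested on simulated data. In the homozygous comparison with wild type it recovered 68% of the differences of 1 log2 unit put into such data and 98% of those of 2, with 9 false calls of 175. For the slope these were 54%, 87% and 9 of 150. The simulated noise was independent between probe sets and arrays, unlike the shared array pattern of these genes. The sizes put in exceeded every difference and slope of the 45 genes, so recovery at their sizes was not measured. Same-numbered arrays correlated between -0.25 and 0.62 in their residuals, and differently numbered ones between -0.64 and 0.52. The highest value was that of wild-type array 1 with homozygous array 1. Residuals of a group sum to 0, so these ranges cannot decide whether the numbers pair arrays. The main fit did not pair them. Alternatives were other scalings, filters, variance models, array weights, a replicate block, other probe set choices, the GAPDH difference and leaving out arrays.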

Additional observations from a re-analysis of the deposited data

How the results depend on the processing

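No member passed the adjusted threshold for any genotype comparison under any alternative run. The median over members lay between -0.156 and 0.024 for homozygous against wild type when single arrays were left out, and between -0.186 and -0.027 for heterozygous against wild type. With the replicate block these medians were -0.059 and -0.15 and no member passed; for homozygous against heterozygous the block gave 0.11, array weights -0.029 and the actin covariate -0.032. Leaving out single arrays gave 0 to 1 probe sets past the threshold for both comparisons with wild type. For the actin slope it gave 13 to 4515 probe sets and 0 to 4 members. The GAPDH difference gave 5 members, and the slope without the genotype term 9 members and 7002 probe sets.

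Small differences changed side. For homozygous against wild type, Rplp0 was at -0.11 with array weights, and without the 2 arrays of lowest actin difference (wild-type 1 and homozygous 1) Rplp0 was at -0.0055 and Rps4l at -0.038. For heterozygous against wild type, equal array medians gave -0.00093 for Rpl7a, -0.017 for Rps2, -0.022 for Rps9 and -0.026 for Rps3. Leaving out the 2 arrays whose Nxnl1 went against the label gave -0.020 for Rpl7a, -0.038 for Rps2 and -0.0015 for Rps9. The replicate block gave -0.013 for Rps2, -0.045 for Rps9 and -0.034 for Rps3. The actin covariate gave -0.010 for Rpl7a, -0.0085 for Rps9 and -0.031 for Rps3, array weights -0.073 for Rps9 and -0.098 for Rps3, and leaving out the 2 arrays of lowest actin difference -0.0011 for Rps9. The mean of all probe sets gave -0.070 for Rps9 and -0.10 for Rps3, and the brightest probe set without a suffix -0.26 for Rps3 and 0.081 for Rpl35. For homozygous against heterozygous, the actin covariate gave -0.0068 for Rplp2, -0.032 for Rpl35, -0.031 for Rps20 and -0.032 for Rpl38; the probe set without a suffix gave 0.15 for Rps3 and 0.12 for Rps9, and the mean of probe sets 0.028 and 0.10. Leaving out single arrays gave, for homozygous against wild type, -0.041 to 0.095 for Rpl10a, -0.047 to 0.097 for Rplp0 and -0.011 to 0.074 for Rps2. For heterozygous against wild type the ranges were -0.020 to 0.084 for Rpl7a, -0.038 to 0.069 for Rps2, -0.060 to 0.074 for Rps3 and -0.031 to 0.064 for Rps9. For the slope they were -0.026 to 0.22 for Rps3 and -0.056 to 0.12 for Rps9. The cause was not tested. Values near the lowest of the table (Rpl3l, Rpl39l, Rps16) carry little signal over background.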
